A study of Neurospora crassa with 33 samples.

Results

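Ribosome-protected fragments (RPFs) were compared between the Δcpc-3 strain and the wild-type (WT) strain of *Neurospora crassa* that both expressed the reporter 1xWT-EDP. The libraries were chosen by their labels, with no measured value, and they are 7 of the 33 libraries of the series, 4 from Δcpc-3 and 3 from WT. The series as a whole compared RPFs and mRNA of WT and Δcpc-3 strains that carried 1 of 4 reporters, which hold 1 or 3 copies of the NCU05784 coding sequence (CDS), either with native codons (WT) or with codons that were optimized (OPT). The Δcpc-3 group was deleted for *cpc-3* and the WT group was not, and both carried a Flag-tagged 1xWT-EDP copy at the *csr-1* locus behind the *ccg-1* promoter. All cultures were grown with 2% glucose, for 2 days in plates and 12 h with shaking, and cycloheximide was added to the lysate (0.1 mg/ml) and not to the culture. The labels do not give more than 1 strain for each genotype, so a difference due to the deletion and any other difference between these strains cannot be told apart.

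CPC-3 is the *N. crassa* homolog of the kinase GCN2 of budding yeast. It senses uncharged tRNA and phosphorylates the initiation factor eIF2α, which lowers initiation on most mRNAs and raises the translation of the mRNA of the bZIP factor CPC-1, the homolog of GCN4. CPC-1 in turn activates amino acid biosynthesis genes, a response known as cross-pathway control. In ribosome profiling the mRNA pieces covered by ribosomes are sequenced, so the RPF level of a gene follows both the amount of its mRNA and the number of ribosomes on it.

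RPF levels are given as TPM, that is reads per kilobase of CDS scaled to a sum of 1000000 per library. They are shares of all RPFs, so fewer RPFs on every gene at once would not be seen. The WT libraries held 4929303 to 7924854 reads on CDS regions and the Δcpc-3 libraries 1353453 to 6764618. Δcpc-3 replicates 2 and 3 were the shallowest libraries. A difference was called at an adjusted p under 0.05 (limma on log2(TPM + 0.5), Benjamini-Hochberg over 6995 genes with a mean of at least 1 TPM), and fold changes on this scale are understated for genes of low level.

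The libraries of a strain were not copies of each other. In pairs of WT libraries the spread of the reads per gene was 2.05 to 3.40 times the sampling variance, and in pairs of Δcpc-3 replicates 1 to 3 it was 1.98 to 2.66 times. The spread was 3.23 and 3.40 times in the pairs with WT replicate 3 and 2.05 times between WT replicates 1 and 2. In the pairs with Δcpc-3 replicate 4 it was 5.37 to 7.08 times, so this library stood apart from the other 3. The typical gene lay 0.086 to 0.098 above the WT mean on the log2 scale in replicates 1 to 3 and fell by 0.11 in replicate 4. The deposited FPKM over the interval midpoint, a ratio set by the authors' processing, was 0.74 on long CDS in replicate 4, 0.91 to 0.96 in replicates 1 to 3 and 0.95 to 1.00 in WT. In the 9 Δcpc-3 libraries with other reporters this ratio was 0.71 to 0.79, the range in which replicate 4 lies. Values with and without replicate 4 are therefore given where they differ.

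The RPFs on *cpc-3* itself were nearly absent in Δcpc-3. Its level was 12.8, 13.1 and 12.3 TPM in the WT libraries and 0.183, 0, 0.379 and 0.210 TPM in the Δcpc-3 libraries. The groups did not overlap, and all 4 Δcpc-3 libraries matched their label. The log2 difference was -4.28 (p = 0.057 by exact permutation, two-sided, and no smaller value can be reached with 4 and 3 libraries). The single mRNA library of each strain had 19.6 TPM in WT and 1.27 TPM in Δcpc-3.

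The RPF level on the reporter entry was higher in Δcpc-3. The 1xWT-EDP entry had 157, 146 and 185 TPM in WT and 299, 367, 329 and 241 TPM in Δcpc-3, a mean of 163 ± 20.1 (SD, n = 3) against 309 ± 53.3 (SD, n = 4). The lowest Δcpc-3 library, replicate 4, lay above the highest WT library. The log2 difference was 0.91 (p = 0.057 by exact permutation, two-sided, again the floor) and 1.03 without replicate 4 (p = 0.1 by exact permutation, the floor for 3 and 3 libraries). The mRNA library gave 160 TPM in WT and 279 TPM in Δcpc-3. The gene *ccg-1*, whose promoter drives the reporter, also rose, from a mean of 4118 to 6480 TPM (log2 difference 0.66 ± 0.09 SE, adjusted p = 0.000871 by limma), and its part in the reporter's difference was not tested. The entry with OPT codons, which these strains do not carry, had 10.7, 10.7 and 10.1 TPM in WT and 29.2, 56.3, 46.6 and 22.0 TPM in Δcpc-3. In strains with 1xOPT-EDP, which do not carry the 1xWT-EDP reporter, the 1xWT-EDP entry had a mean of 12.0 TPM in WT and 53.5 TPM in Δcpc-3. The host gene NCU05784 has no entry of its own, and its part in these levels was not tested. Reads that match both entries cannot be told apart here.

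Of the regulators of cross-pathway control, *cpc-1* did not pass the test. Its RPF level was 520, 510 and 630 TPM in WT and 647, 670, 635 and 518 TPM in Δcpc-3. The groups overlapped (log2 difference 0.16 ± 0.12 SE, adjusted p = 0.354). The *cpc-2* gene, which encodes a WD-repeat protein homologous to RACK1 of the small ribosomal subunit, fell in Δcpc-3. It had 1327, 1373 and 1537 TPM in WT and 837, 803, 722 and 704 TPM in Δcpc-3, a log2 difference of -0.88 ± 0.09 (SE, adjusted p = 0.000165 by limma). Its single mRNA libraries differed less, with 1871 TPM in WT and 1627 TPM in Δcpc-3.

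**Figure D1:**
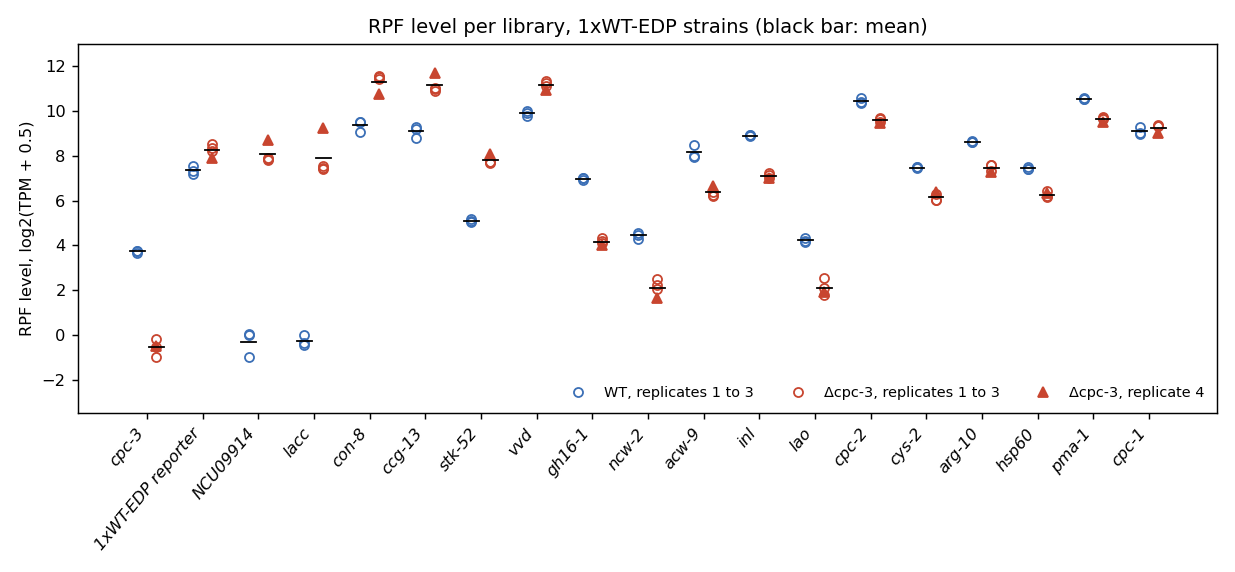
RPF level of 19 named genes in each library, as log2(TPM + 0.5) on the vertical axis, with WT in blue, Δcpc-3 in red, Δcpc-3 replicate 4 as a triangle and the group mean as a bar. The groups are apart for each of these genes except *cpc-1*, and replicate 4 lies highest for *lacc* (615 TPM) and lowest of the 4 for *con-8* (1720 TPM).

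Across all genes the RPF level rose for 1063 and fell for 895 of 6995 genes, which is 15.2% and 12.8% (28.0% in all). Of these, 316 rose and 263 fell over 2-fold, 4.52% and 3.76% of the genes tested, or 8.28% in all. The 3 WT and 4 Δcpc-3 libraries did not overlap for 310 of the 316 and for 259 of the 263, against 38.7% of all tested genes. These genes were called from the same 7 libraries, so their separation follows largely from the call and lends it no weight. Replicate 4 lay beyond all WT libraries in the same direction for 312 of the 316 and for 261 of the 263, although it was one of the libraries used for the call. The WT libraries were each needed for many of the calls, since 1254, 1265 and 1273 genes were called without WT replicate 1, 2 and 3. With the deposited FPKM 8.91% of all tested genes rose and 14.6% fell. After median centring it was 12.9% and 17.1%, and without replicate 4 it was 22.5% and 14.3%. Counts of list members under these settings are to be read against these shares. The split between directions depended on the scaling. Of the called genes 54.3% were higher as reported, but 43.0% after centring each library on its median gene, 38% with the deposited FPKM and 61.2% without replicate 4, and with FPKM the median of all tested genes moved from 0.034 to -0.11 on the log2 scale.

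**Figure D2:**
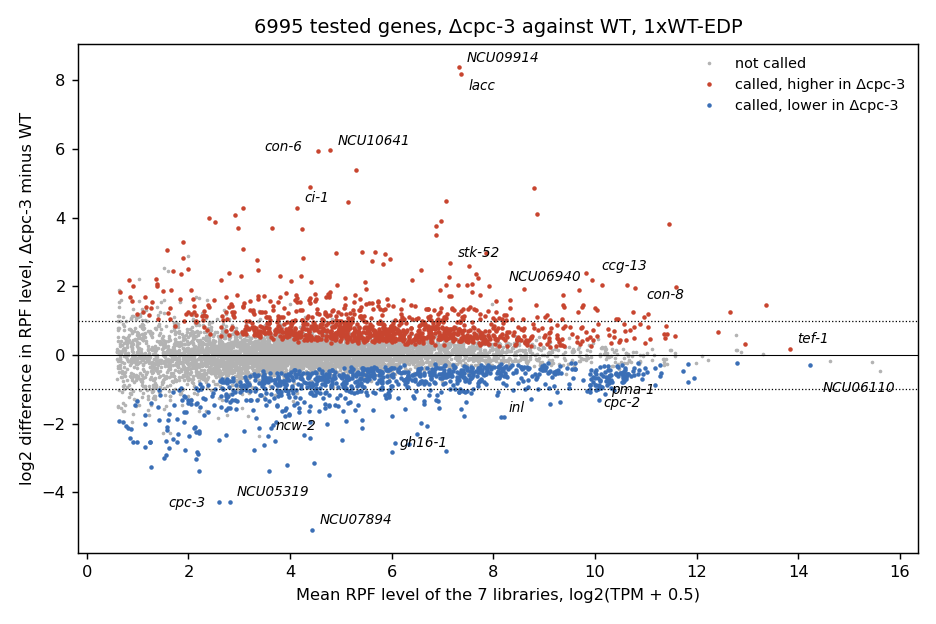
Log2 difference in RPF level (Δcpc-3 minus WT, vertical axis) against the mean level of the 7 libraries (log2(TPM + 0.5), horizontal axis) for 6995 genes, with called genes in red (1063 higher) and blue (895 lower) and dotted lines at 2-fold. The largest differences are gains, up to 8.39 for NCU09914. The genes of highest level, NCU06110, *nmt-1* and *gpd-1*, lie between the dotted lines (-0.46, -0.21 and -0.17).

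The genes that rose most were nearly silent in WT. NCU09914, for which no symbol was found, had 0.503, 0.537 and 0 TPM in WT and 223, 234, 238 and 421 TPM in Δcpc-3 (log2 difference 8.39 ± 0.30 SE, adjusted p = 5.89e-07 by limma). The laccase gene *lacc*, which encodes a copper oxidase, had 0.497, 0.228 and 0.280 TPM in WT and 187, 168, 175 and 615 TPM in Δcpc-3 (8.19 ± 0.41, adjusted p = 2.24e-06). Both were highest in replicate 4. NCU10641 was at 0 in every WT library and at 16.0, 18.5, 21.6 and 134 TPM in Δcpc-3. Against a floor of 3 reads in the WT library with the highest floor, the Δcpc-3 mean of NCU10641 was at least 43.6-fold higher, and at least 17.1-fold higher without replicate 4. These genes passed the filter on low values through their Δcpc-3 libraries. The mRNA libraries moved the same way, from 1.34 to 181 TPM for *lacc*, from 12.2 to 186 TPM for NCU09914 and from 2.62 to 21.3 TPM for NCU10641.

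A pair of genes with symbols of protein kinases were among those that rose, in all 4 Δcpc-3 libraries, with *stk-52* highest in replicate 4. The *stk-52* level was 32.7, 36.0 and 33.3 TPM in WT and 209, 213, 202 and 268 TPM in Δcpc-3 (log2 difference 2.69 ± 0.12 SE, adjusted p = 1.15e-06 by limma). The *stk-39* level was 111, 103 and 99.5 TPM in WT and 255, 261, 268 and 273 TPM in Δcpc-3 (1.34 ± 0.09, adjusted p = 1.23e-05). The *ci-1* gene had 1.09, 0.223 and 0.594 TPM in WT and 12.8, 11.5, 15.4 and 78.4 TPM in Δcpc-3. It passed the filter on low values through its Δcpc-3 libraries. Its log2 difference of 4.29 ± 0.61 (adjusted p = 0.000874) became 3.66 without replicate 4, the library in which it was highest. The same library was the highest for *neg-1*, an endoglucanase gene, at 72.5 TPM against 23.0 to 28.3 TPM in replicates 1 to 3 and 8.96 to 10.9 TPM in WT (1.70 ± 0.35, adjusted p = 0.00624). The opsin gene *nop-1* was low throughout, with 2.74 to 4.55 TPM in WT and 10.5 to 16.4 TPM in Δcpc-3 (1.57 ± 0.23, adjusted p = 0.00112).

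Of the genes with a mean of at least 1000 TPM in the higher strain, 20 rose and 6 fell over 2-fold. Of all tested genes 4.52% and 3.76% did. With calls of any size 55 genes of this level rose and 98 fell, so the split between directions depended on the limit of 2-fold. The number of tested genes of this level was not counted, so no share is given. The 5 named here were chosen after their values were seen. NCU05498 took 5568, 5475 and 4876 TPM in WT and 14874, 15460, 15673 and 12015 TPM in Δcpc-3 (log2 difference 1.45 ± 0.10 SE, adjusted p = 2.05e-05 by limma). NCU04583 had 303, 319 and 272 TPM in WT, 3112, 3196 and 3327 TPM in Δcpc-3 replicates 1 to 3 and 9220 TPM in replicate 4 (3.81 ± 0.34, adjusted p = 7.03e-05). Thus both were high in all 4 Δcpc-3 libraries, but by unequal amounts for NCU04583. The autophagy gene *atg-8*, whose product is a ubiquitin-like protein of the autophagosome membrane, rose from 947, 878 and 739 TPM to 1695, 1773, 1758 and 1799 TPM (1.05 ± 0.09, adjusted p = 6.96e-05), while its mRNA libraries held 772 and 866 TPM. A pair of genes split the Δcpc-3 libraries. NCU07232 had 269 to 280 TPM in WT, 1815 to 2010 TPM in Δcpc-3 replicates 1 to 3 and 338 TPM in replicate 4 (2.17 ± 0.54, adjusted p = 0.0154, and 2.80 without replicate 4). Its call was lost without WT replicate 2 or 3 (adjusted p = 0.0507 and 0.0555). NCU10040 had 146 to 178 TPM in WT, 444 to 480 TPM in replicates 1 to 3 and 4491 TPM in replicate 4 (2.38 ± 0.71, adjusted p = 0.0339, and 1.56 without replicate 4), and its call was lost without any 1 WT replicate (adjusted p = 0.0898 to 0.0961).

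Some genes of conidiation were higher in Δcpc-3. Conidia are the asexual spores of *N. crassa*, and their genes served as markers of spore formation in the cultures. Of the 5 conidial markers, all 4 that were tested rose, where 15.2% of all tested genes did, and *con-13* was below the filter. The *con-8* level was 734, 722 and 531 TPM in WT and 2734, 2924, 3023 and 1720 TPM in Δcpc-3 (log2 difference 1.95 ± 0.20 SE, adjusted p = 0.000143 by limma). The *eas* gene, for the hydrophobin of the spore coat, had 1265, 1260 and 1274 TPM in WT and 2537, 2072, 2074 and 2828 TPM in Δcpc-3 (0.90 ± 0.11, adjusted p = 0.000475). The other markers were of low level. The *con-6* gene was at 0 in all WT libraries and at 33.1, 52.3, 69.1 and 6.90 TPM in Δcpc-3. Against a floor of 3 reads in the WT library with the highest floor, the Δcpc-3 mean of *con-6* was at least 18.2-fold higher, and its lowest library, replicate 4, at least 3.11-fold higher. It passed the filter on low values only through the Δcpc-3 libraries, so its call was fixed by the filter and lends no weight to the count of markers. The *con-10* gene had 2.28, 7.85 and 5.20 TPM in WT and 10.7, 17.9, 12.9 and 7.46 TPM in Δcpc-3, where the groups overlapped (1.26 ± 0.39, adjusted p = 0.0379). The summed level of the 5 markers was 0.181% to 0.200% of all TPM in WT and 0.456% to 0.532% in Δcpc-3. It was also higher in Δcpc-3 with every other reporter, at 0.317% to 0.542% against 0.149% to 0.200% in WT. The part of spore formation in the differences of other genes was not tested.

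The wider list of conidiation, carotenoid and clock-controlled genes had 15 tested members, of which 7 rose and 1 fell (46.7% and 6.67%, against 15.2% and 12.8% of all tested genes). The median log2 difference was 0.32, against 0.034 over all tested genes. The clock-controlled gene *ccg-13* rose from 585, 629 and 450 TPM to 1895, 2104, 2009 and 3355 TPM (2.05 ± 0.20 SE, adjusted p = 0.000109 by limma). The 1 member that fell was *ccg-6*, from a mean of 411 to 303 TPM (-0.44 ± 0.09, adjusted p = 0.0049). The carotenoid genes *al-1*, *al-2* and *al-3* had log2 differences of 0.015, 0.35 and 0.14 and did not pass the test. Among 7 clock and light genes 1 rose (14.3%, near the 15.2% of all tested genes), the blue-light photoreceptor gene *vvd*, which adapts the response to light. It had 959, 1034 and 891 TPM in WT and 2199, 2409, 2591 and 1972 TPM in Δcpc-3 (1.25 ± 0.10, adjusted p = 5.43e-05). The photoreceptor gene *wc-1* had a log2 difference of 0.26 ± 0.12 (adjusted p = 0.128), and passed the test without replicate 4 (adjusted p = 0.0228).

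Cytosolic ribosomal protein genes fell together. Of 72 genes, 58 fell and 0 rose, against 12.8% lower among all tested genes, and the median log2 difference was -0.60. Leaving out replicate 4 gave 60 lower, where 14.3% of all tested genes were. No member was called higher with the deposited FPKM or with median centring either, where 8.91% and 12.9% of all tested genes were. The list was taken from a table of the study, which had grouped the predicted genes by codon bias and CDS length, and its members have a short CDS with optimal codons. NCU06047 of this list had 1489, 1439 and 1540 TPM in WT and 737, 767, 708 and 782 TPM in Δcpc-3 (-0.99 ± 0.07 SE, adjusted p = 2.41e-05 by limma). The *rap-1* gene had 1394, 1408 and 1470 TPM in WT and 870, 864, 847 and 840 TPM in Δcpc-3 (-0.73 ± 0.07, adjusted p = 7.96e-05). In sum the 72 genes took 11.3%, 11.3% and 12.1% of all TPM in WT and 8.11%, 8.01%, 8.09% and 7.0% in Δcpc-3, so no Δcpc-3 library reached the WT range. The mRNA libraries differed less, at 12.3% in WT and 11.5% in Δcpc-3. Mitochondrial ribosomal protein genes had a median of -0.34, with 7 of 31 lower and 0 higher.

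Of 3 translation factor genes 1 rose and 1 fell (33.3% each, beside 15.2% and 12.8% of all tested genes). The *cot-3* gene was not called (-0.12 ± 0.10 SE, adjusted p = 0.431 by limma). With the deposited FPKM all 3 were below 0, and 1 was called lower. The gene of eIF5A, *eif5A*, fell from 1936, 2021 and 1826 TPM to 1378, 1394, 1315 and 1140 TPM (-0.56 ± 0.09 SE, adjusted p = 0.00149 by limma). The gene of the elongation factor eEF1A, *tef-1*, had 13573 to 13680 TPM in WT and 15094 to 15840 TPM in Δcpc-3 (0.18 ± 0.05, adjusted p = 0.0319), but this difference turned to -0.35 with the deposited FPKM and did not pass the test after median centring or without any 1 of WT replicates 1 and 2 and Δcpc-3 replicates 1 to 3 (adjusted p = 0.0878 to 0.119). Of 5 aminoacyl-tRNA synthetase genes 1 rose and 2 fell (20% and 40%, against 15.2% and 12.8% of all tested genes). The mitochondrial leucyl-tRNA synthetase gene *leu-5* had a log2 difference of -0.57 ± 0.16 (adjusted p = 0.0231), which lost its call without any 1 of the WT replicates or Δcpc-3 replicate 2 (adjusted p = 0.0504 to 0.109). The valyl-tRNA synthetase gene *cyt-20* had 0.27 ± 0.08 (adjusted p = 0.0291), which was -0.15 with the deposited FPKM and lost its call without each of the libraries in turn except replicate 4.

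Most genes of the amino acid biosynthesis list were lower in Δcpc-3. Of 61 genes, 37 fell and 1 rose (60.7% and 1.64%, against 12.8% and 15.2% of all tested genes), and the median log2 difference was -0.53. The list was matched by symbol and not by function, so it also holds genes of other roles. Among them are the aminoacyl-tRNA synthetase genes *leu-5*, *leu-6* and *trp-5*, of which *leu-5* is among those that fell. The number of such members was not counted. With the deposited FPKM 35 of 60 tested members fell and 1 rose (14.6% and 8.91% of all tested genes). Without replicate 4 it was 42 and 2 (14.3% and 22.5% of all tested genes). The cysteine gene *cys-2* had 175, 179 and 178 TPM in WT and 77.2, 64.6, 64.3 and 82.1 TPM in Δcpc-3 (-1.30 ± 0.11 SE, adjusted p = 6.96e-05 by limma). The argininosuccinate lyase gene *arg-10* had 396, 403 and 386 TPM in WT and 191, 162, 195 and 155 TPM in Δcpc-3 (-1.17 ± 0.10, adjusted p = 7.07e-05). The groups did not overlap for either gene. Further examples of members that fell, picked after their values were seen, came from several pathways. They were cysteine (*cys-11*, -1.03), lysine (*lys-6*, -1.12), aromatic (*aro-6*, -1.0), branched-chain (*ilv-2*, -0.95), threonine and methionine (*hom-1*, -0.88), tryptophan (*trp-3*, -0.81) and histidine (*his-3*, -0.46) genes. Others of the same pathways were not called, as *his-7* (0.28) and *ilv-5* (0.31). The 1 gene that rose was *thr-5*, from a mean of 42.0 to 70.5 TPM (0.72 ± 0.14, adjusted p = 0.00523). In sum the 61 genes took 2.06% to 2.21% of all TPM in WT and 1.31% to 1.51% in Δcpc-3. The mRNA libraries had 2.10% and 1.69%.

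**Figure D3:**
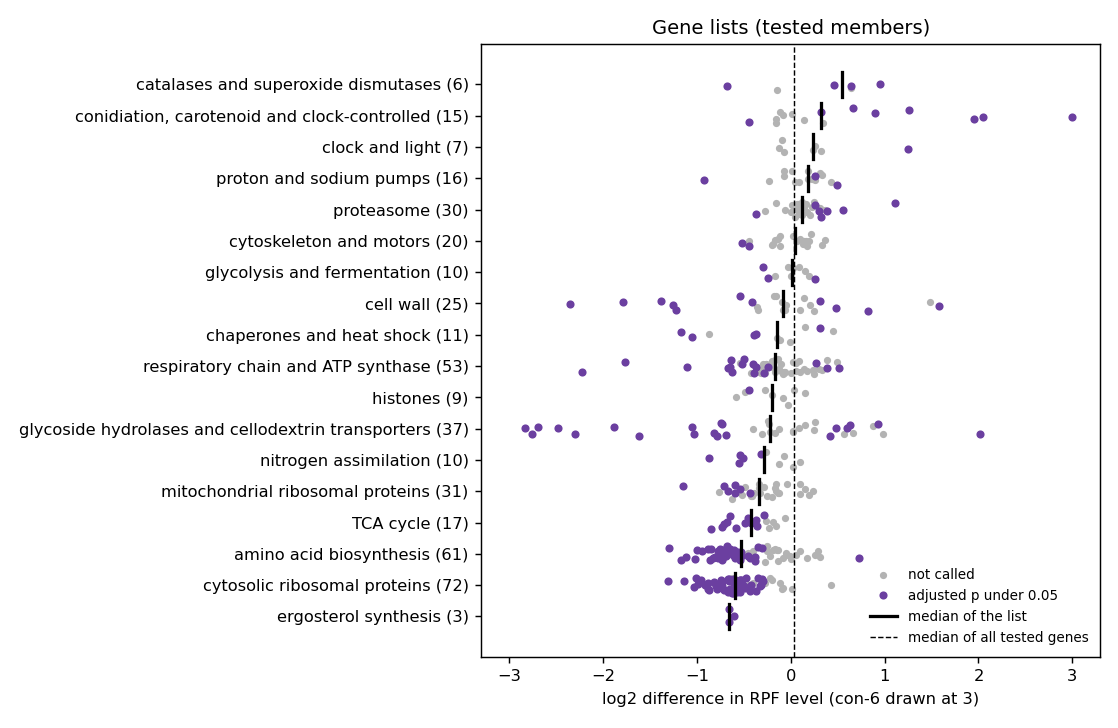
Log2 difference in RPF level (Δcpc-3 minus WT, horizontal axis) of each tested member of 18 gene lists, with called members in purple, list medians as black bars and the median of all tested genes (0.034) as a dashed line. Cytosolic ribosomal protein genes (median -0.60) and amino acid biosynthesis genes (median -0.53) lie mostly to the left, while cell wall and glycoside hydrolase genes spread to both sides; *con-6*, at 5.95, is drawn at 3.

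Of 10 nitrogen assimilation genes 5 fell and 0 rose (median -0.29), where 12.8% and 15.2% of all tested genes did. The nitrate gene *nit-10* had 1369, 1351 and 1172 TPM in WT and 704, 724, 749 and 656 TPM in Δcpc-3 (-0.87 ± 0.09 SE, adjusted p = 0.000126 by limma). The glutamate dehydrogenase gene *am* had 1979, 1985 and 1909 TPM in WT and 1414, 1402, 1375 and 1159 TPM in Δcpc-3 (-0.55 ± 0.09, adjusted p = 0.00141), and the glutamine synthetase gene *gln-1* had -0.54. The inositol phosphate synthase gene *inl*, which makes the first step of inositol synthesis, was among the 10 genes with a symbol that fell most. It had 481, 487 and 469 TPM in WT and 148, 128, 141 and 129 TPM in Δcpc-3 (-1.81 ± 0.09, adjusted p = 1.97e-06). The L-amino acid oxidase gene *lao* had 17.8, 19.7 and 17.1 TPM in WT and 5.30, 2.97, 3.76 and 3.29 TPM in Δcpc-3 (-2.14 ± 0.21, adjusted p = 0.000126). All 3 ergosterol genes of the list fell, *erg-4* by 0.60 and the sterol reductase gene *erg-3* by 0.66 on the log2 scale, the latter without a call when WT replicate 3 was left out (adjusted p = 0.0509).

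Of 17 TCA cycle genes 12 fell and 0 rose (70.6% lower, against 12.8% of all tested genes, median -0.42). The citrate synthase gene *cit-1* had 927, 926 and 1025 TPM in WT and 567, 553, 520 and 491 TPM in Δcpc-3 (-0.85 ± 0.08 SE, adjusted p = 0.000126 by limma), and *tca-6* had -0.65 ± 0.10 (adjusted p = 0.00169). Of 53 respiratory chain and ATP synthase genes 14 fell and 3 rose (26.4% and 5.66%, median -0.16). With the deposited FPKM 11 were lower and 0 higher, where 14.6% and 8.91% of all tested genes were. Without replicate 4 it was 17 and 8, where 14.3% and 22.5% of all tested genes were. The alternative NADH dehydrogenase gene *nde-2* had 107, 106 and 106 TPM in WT and 39.4, 35.5, 33.3 and 19.5 TPM in Δcpc-3 (-1.77 ± 0.21, adjusted p = 0.000364). Its relative *ndi-1* had -2.23, while *nde-1* had 0.51. The gene *cyt-19*, for a helicase that assists splicing in mitochondria, fell from 67.8, 73.1 and 78.2 TPM to 38.0, 30.2, 36.8 and 30.3 TPM (-1.10 ± 0.13, adjusted p = 0.000307).

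Of 11 chaperone and heat shock genes 4 fell and 1 rose (36.4% and 9.09%, against 12.8% and 15.2% of all tested genes), with a median of -0.15. The mitochondrial chaperonin gene *hsp60* had 167, 183 and 170 TPM in WT and 85.4, 72.4, 70.4 and 79.5 TPM in Δcpc-3 (-1.17 ± 0.10 SE, adjusted p = 6.96e-05 by limma). The *hsp70-2* gene had 1339, 1319 and 1258 TPM in WT and 710, 628, 655 and 532 TPM in Δcpc-3 (-1.05 ± 0.10, adjusted p = 0.000114). Of 30 proteasome genes 6 rose and 1 fell (median 0.12). The share that rose, 20%, was near the 15.2% of all tested genes. The counts were 1 higher and 2 lower with the deposited FPKM (8.91% and 14.6% of all tested genes). After median centring they were 2 of each (12.9% and 17.1% of all tested genes). The *rpn-4* gene had 92.6, 93.3 and 112 TPM in WT and 227, 236, 212 and 183 TPM in Δcpc-3 (1.11 ± 0.12, adjusted p = 0.000193), and it rose in its mRNA libraries from 112 to 283 TPM. The lid subunit gene *rpn-5* had 0.56 ± 0.10 (adjusted p = 0.00341), with no call under FPKM (adjusted p = 0.304).

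Among 25 tested cell wall genes 4 rose and 7 fell (16% and 28%, against 15.2% and 12.8% of all tested genes, median -0.086). Without replicate 4 it was 7 and 8, where 22.5% and 14.3% of all tested genes were called. The anchored cell wall protein gene *acw-9* had 248, 256 and 360 TPM in WT and 75.7, 82.1, 72.6 and 98.6 TPM in Δcpc-3 (-1.79 ± 0.16 SE, adjusted p = 6.96e-05 by limma). The anchored protein gene *acw-12* had 128, 135 and 110 TPM in WT and 351, 344, 390 and 403 TPM in Δcpc-3 (1.58 ± 0.10, adjusted p = 1.48e-05). The members thus differed in sign within 1 family. The non-anchored protein gene *ncw-2* had 19.2, 21.7 and 23.1 TPM in WT and 3.58, 4.19, 5.05 and 2.59 TPM in Δcpc-3 (-2.36 ± 0.22, adjusted p = 9.61e-05). Its relative *ncw-5* had 80.9 to 92.4 TPM in WT, 126 to 156 TPM in replicates 1 to 3 and 1071 TPM in replicate 4, and it did not pass the test (adjusted p = 0.114). The chitin synthase gene *chs-1* had 120 to 125 TPM in WT and 113 to 117 TPM in Δcpc-3 (adjusted p = 0.439).

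Of 81 genes for glycoside hydrolases and cellodextrin transporters 37 passed the filter on low values, of which 14 fell and 6 rose (37.8% and 16.2%, where 12.8% and 15.2% of all tested genes did), 9 and 1 of them over 2-fold. The gene *gh16-1* had 129, 129 and 121 TPM in WT and 16.5, 19.4, 17.5 and 15.6 TPM in Δcpc-3 (-2.84 ± 0.12 SE, adjusted p = 5.89e-07 by limma). Its groups were far apart relative to their spread. The gene *gh61-9* had 16.6, 18.2 and 19.7 TPM in WT and 2.35, 5.05, 1.10 and 1.77 TPM in Δcpc-3 (-2.76 ± 0.37, adjusted p = 0.000631). The gene *gh13-1* had 66.2, 64.7 and 56.5 TPM in WT and 25.9, 23.8, 16.8 and 15.5 TPM in Δcpc-3 (-1.61 ± 0.19, adjusted p = 0.00032), and *gh10-3* had 10.3 to 11.2 TPM in WT and 1.10 to 2.10 TPM in Δcpc-3. The plasma membrane proton pump gene *pma-1* was of high level and fell from 1513, 1507 and 1508 TPM to 850, 827, 798 and 719 TPM (-0.92 ± 0.08, adjusted p = 6.30e-05), while 2 of 16 pump genes rose and 1, *pma-1*, fell. The V-ATPase gene *vma-11* was one of those that rose (0.49 ± 0.12, adjusted p = 0.016), but not without WT replicate 3 (adjusted p = 0.0538). Without Δcpc-3 replicate 4, 9 pump genes rose, where 22.5% of all tested genes did. With the deposited FPKM 0 pump genes rose, where 8.91% of all tested genes did. Of the 33 genes of the glycoside hydrolase list tested with FPKM 1 rose and 13 fell, beside 8.91% and 14.6% of all tested genes.

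The genes that fell most were of other kinds. NCU07894, without a symbol, had 46.9, 50.5 and 47.2 TPM in WT and 0.850, 1.65, 0.704 and 0.683 TPM in Δcpc-3 (-5.09 ± 0.24 SE, adjusted p = 1.92e-06 by limma). NCU05319 had 13.4, 14.7 and 16.1 TPM in WT and 0.619, 0, 0 and 0.852 TPM in Δcpc-3 (-4.27 ± 0.42, adjusted p = 0.000119). Both were near the limit of detection in Δcpc-3 and passed the filter on low values through their WT libraries. The copper metallothionein gene *cmt*, a CDS of 81 nt, had 492, 535 and 457 TPM in WT and 133, 118, 102 and 239 TPM in Δcpc-3 (-1.82 ± 0.25, adjusted p = 0.000666). Among 6 catalase and superoxide dismutase genes 3 rose and 1 fell (50% and 16.7%, against 15.2% and 12.8% of all tested genes). Without replicate 4 it was 3 and 2, where 22.5% and 14.3% of all tested genes were called. The manganese superoxide dismutase gene *sod-2* had 130, 132 and 109 TPM in WT and 264, 251, 280 and 174 TPM in Δcpc-3 (0.95 ± 0.16, adjusted p = 0.00251). The *cat-1* gene rose (0.46 ± 0.11, adjusted p = 0.0128), though not without WT replicate 1 or 3 (adjusted p = 0.0505 and 0.0508). The *cat-3* gene had 489 to 537 TPM in replicates 1 to 3 but 926 TPM in replicate 4, close to the 935 to 956 TPM of WT. Only 1 gene of this list rose with the deposited FPKM or after median centring, where 8.91% and 12.9% of all tested genes did.

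The shares that fell among cytoskeleton, histone and glycolysis genes were 10%, 11.1% and 20%, beside 12.8% of all tested genes. Of 20 cytoskeleton and motor genes 2 fell and 0 rose, the α-tubulin genes *tba-2* (-0.52 ± 0.08 SE, adjusted p = 0.00171 by limma) and *tba-1* (-0.44 ± 0.08, adjusted p = 0.0039). Of 9 histone genes 1 fell and 0 rose, *hH4-1* (-0.45 ± 0.08, adjusted p = 0.00311), and *hH3* had -0.28 ± 0.12 (adjusted p = 0.127, and 0.0361 without replicate 4). Of 10 glycolysis and fermentation genes 1 rose and 2 fell, *emp-7* (-0.30 ± 0.08, adjusted p = 0.0181) and the phosphoglycerate kinase gene *pgk* (-0.24 ± 0.06, adjusted p = 0.0138). These are small differences of abundant genes, and both lost their call without WT replicate 1, WT replicate 2 or Δcpc-3 replicate 2 (adjusted p = 0.0509 to 0.0742), as *emp-7* also did without Δcpc-3 replicate 3 (adjusted p = 0.064).

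For the 3 genes of highest level replicate 4 was nearer to WT than the other Δcpc-3 libraries were. NCU06110 had 58968, 59525 and 57315 TPM in WT, 38552, 37625 and 37197 TPM in Δcpc-3 replicates 1 to 3 and 61130 TPM in replicate 4. It did not pass the test (-0.46 ± 0.16 SE, adjusted p = 0.0565 by limma), but without replicate 4 it fell by 0.63 on the log2 scale (adjusted p = 6.66e-06). The *nmt-1* gene, known to be repressed by thiamine, had 48092 to 48133 TPM in WT, 38630 to 40615 TPM in replicates 1 to 3 and 47893 TPM in replicate 4 (adjusted p = 0.0717, and 0.000428 without replicate 4). The glyceraldehyde phosphate dehydrogenase gene *gpd-1* had 24751 to 27894 TPM in WT and 22394 to 25570 TPM in Δcpc-3 (adjusted p = 0.116, and 0.0277 without replicate 4). Levels are shares of the library. Scaling without NCU06110, *nmt-1* and the short entry NCU16635, with *gpd-1* kept, gave 1017 higher and 987 lower calls.

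Short CDS gained RPFs relative to long CDS in Δcpc-3. These levels were not divided by mRNA, so they are not ribosome densities, and the part of mRNA levels in this difference was not tested. In each library the median log2 level of 2323 genes with a CDS over 1800 nt was set against that of 1730 genes under 900 nt. The difference was -2.08, -2.10 and -2.03 in WT and -2.22, -2.36, -2.42 and -2.34 in Δcpc-3, so all 4 Δcpc-3 libraries lay below all WT libraries. The groups differed by -0.27 (p = 0.057 by exact permutation, two-sided, the floor for this design). The deposited FPKM gave -0.26 and a minimum of 5 TPM gave -0.21. In classes of CDS length 28.5% of the genes of up to 600 nt rose and 10.6% fell, while 4.96% of those over 3000 nt rose and 8.75% fell. The median log2 difference went from 0.25 up to 600 nt to -0.040 over 3000 nt. Replicate 4 had the same order of classes, from 0.099 to -0.18, at a lower level than the other 3 libraries. The cytosolic ribosomal protein genes, which came from a table of short CDS, fell all the same.

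**Figure D4:**
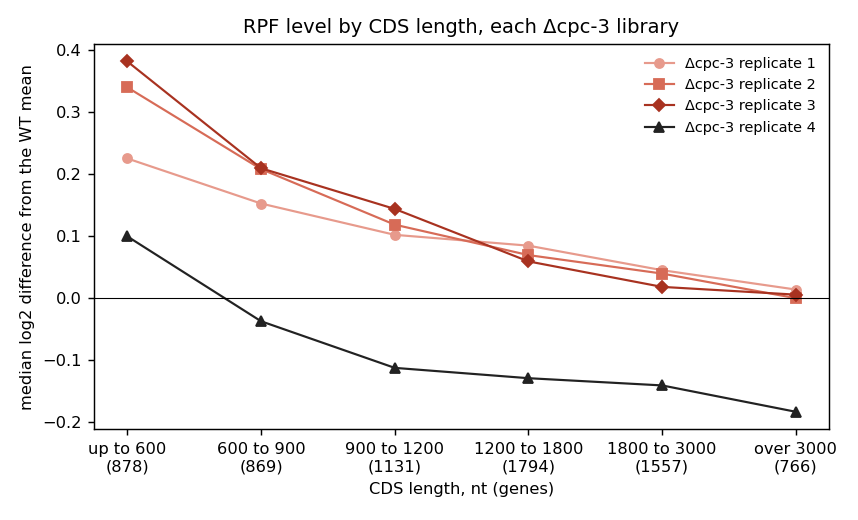
Median log2 difference of each Δcpc-3 library from the WT mean (vertical axis) in 6 classes of CDS length (horizontal axis, nt, with the number of genes). All 4 lines fall from short to long CDS, for instance from 0.38 to 0.0057 in replicate 3 and from 0.099 to -0.18 in replicate 4.

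The mRNA libraries, 1 per strain, allow no test. Shares that moved with the RPFs were larger among genes called over 2-fold than over all genes, in both directions. Of the 316 genes that rose over 2-fold 175 (55.4%) had an mRNA log2 difference above 1 and 1 had one below -1. Of the 263 genes that fell over 2-fold 39 (14.8%) had one below -1, 194 lay between and 30 (11.4%) had one above 1. Over all tested genes 15.6% were above 1 and 2.57% below -1, and the median was 0.24, so these shares are to be read against a shift of the mRNA library. Several named genes that fell in RPFs did not fall in mRNA, while the mRNA of *acw-12*, which rose, was also higher (183 and 297 TPM). These are examples. Of the 37 tested genes of the glycoside hydrolase list 11 had an mRNA log2 difference above 1 and 3 had one below -1. The mRNA of *acw-9* had 552 TPM in WT and 1045 TPM in Δcpc-3 while its RPFs fell, and that of *ncw-2* had 64.2 and 140 TPM. The mRNA of *gh13-1* had 169 and 350 TPM, that of *acw-7* 119 and 224 TPM, and that of *cmt* 1272 and 2044 TPM. For *gh16-1* the mRNA was near level, at 263 and 241 TPM. Other genes fell in both assays, as NCU07894 (46.1 and 5.42 TPM of mRNA), *gh10-3* (18.9 and 6.27 TPM), *inl* (589 and 275 TPM) and *arg-10* (426 and 212 TPM). The mRNA libraries held 1071326 and 1528133 reads, and counts of the low genes among them are small.

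The strain difference was then set beside that of the strains with the other 3 reporters, in a fit of all 25 RPF libraries. Of the 311 genes that rose over 2-fold with 1xWT-EDP and were tested here, 185 were also called higher with each of the other 3 reporters, and of the 258 that fell 156 were also called lower with each. With 3xWT-EDP 72.0% of the genes that rose and 85.3% of those that fell were called in the same direction, where 11.3% and 20.1% of all tested genes were. With 1xOPT-EDP it was 74.9% and 83.7% (13.8% and 17.6% of all genes), and with 3xOPT-EDP 68.2% and 65.1% (14.5% and 13.3%). Of the genes called over 2-fold with both 1xWT-EDP and 3xWT-EDP, the 142 shared genes were 45.7% of the 1xWT-EDP list and 68.3% of the 3xWT-EDP list for genes that rose, and the 160 shared genes that fell were 62.0% and 53.2%. With 1xOPT-EDP the 152 shared genes that rose were 48.9% and 68.5%, and the 154 that fell 59.7% and 56%. With 3xOPT-EDP the 139 that rose were 44.7% and 59.4%, and the 92 that fell 35.7% and 41.6%. The difference was alike in size for *stk-39* (1.34 here and 1.43, 1.24 and 1.35 with 3xWT-EDP, 1xOPT-EDP and 3xOPT-EDP). For *gh16-1* it was -2.84 here and -2.92, -2.81 and -2.15 with the others. Calls in the opposite direction with another reporter were few, at 0, 1 and 3 of the genes that rose and 1, 0 and 0 of those that fell.

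The difference between the reporters was tested for each gene as the strain difference with 1xWT-EDP minus the mean of the other 3. It passed for 477 of 6987 genes (6.83%), for 323 as more positive (4.62%) and for 154 as more negative (2.20%). Without Δcpc-3 replicate 4 it passed for 1185 genes, and with replicate 4 as the only Δcpc-3 library for 492, of which 165 were among the 477. These 2 settings and the FPKM ratio of replicate 4 given above move with this result, and their part was not tested. The 5 genes with the smallest adjusted p were NCU01871, NCU05395, NCU00322, NCU06940 and *asd-1*. NCU06940 had 430, 418 and 369 TPM in WT and 1670, 1656, 1760 and 1624 TPM in Δcpc-3, and its log2 difference was 2.05 here and 1.51, 1.10 and 0.65 with the other reporters. The *asd-1* gene did not differ by the test with 1xWT-EDP (0.082 ± 0.10 SE, adjusted p = 0.591 by limma) and had -0.66, -1.05 and -0.94 with the others. Of the ribosomal protein genes 18 of 72 were more negative with 1xWT-EDP and 0 more positive. Of the 15 conidiation, carotenoid and clock-controlled genes 6 were more positive and 1 more negative.

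**Figure D5:**
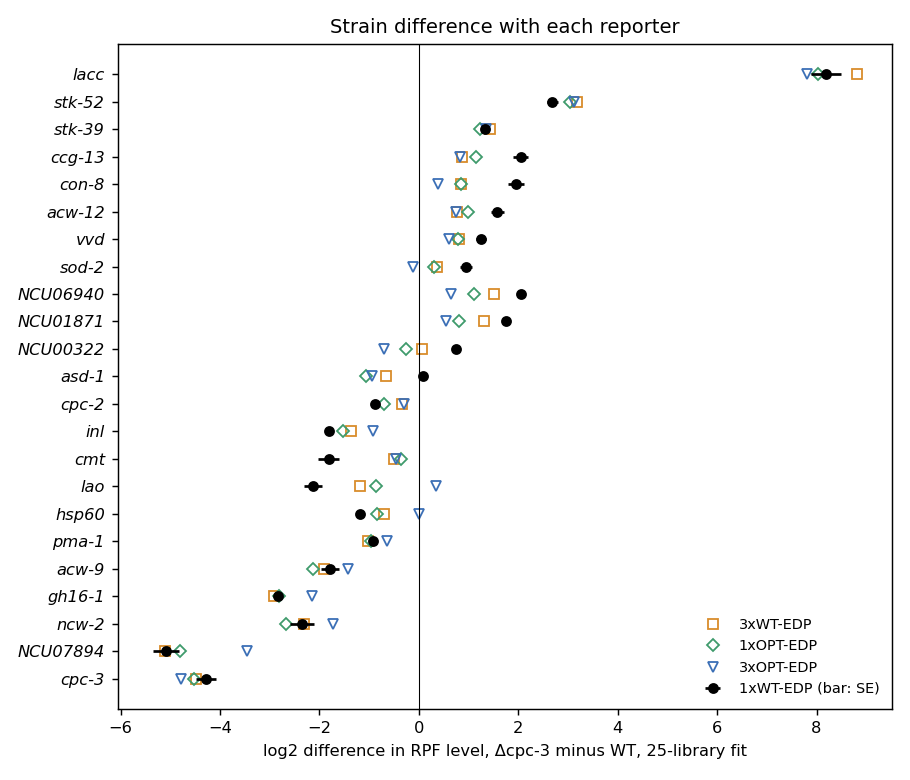
Log2 difference in RPF level (Δcpc-3 minus WT, horizontal axis) of 23 named genes with 1xWT-EDP (black, bar for the SE) and with 3xWT-EDP, 1xOPT-EDP and 3xOPT-EDP (open symbols) in the 25-library fit. The 4 reporters lie close together for *stk-39* and apart for *con-8* (1.95 with 1xWT-EDP, 0.39 to 0.86 with the others) and *lao* (-2.14, against -1.17 to 0.34).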

How the data were processed

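RPF and mRNA reads were mapped to CDS regions by the authors, who deposited 1 table per library that holds FPKM, a read level set against CDS length and library size, and the bounds of an interval around it. Bowtie2 and Cufflinks are named in the submitters' processing notes, and versions, genome build and annotation are not given in the sources used here. In every library the bounds are whole multiples of 1 step (tolerance 0.05 reads), which gave the reads on CDS regions. Depending on the library, 15.2% to 45.5% of the deposited FPKM values fall outside their own interval, and the 78-nt NCU16635, chosen after its values were seen, takes 11.6% to 28.0% of the FPKM sum but 0.341% to 0.904% of the midpoints. The interval midpoint, scaled to a sum of 1000000 (TPM), was therefore used, with the deposited FPKM as an alternative.

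Genes with a mean of at least 1 TPM over the 7 libraries were tested with limma (version 3.58.1, R 4.3.3) with a mean trend on log2(TPM + 0.5), and calls needed an adjusted p under 0.05. Single values were compared by exact permutation. Replicates follow the labels. The study states biological replicates, but the labels do not say from which cultures they came, and p-values measure the spread between these samples. The 25 RPF libraries were fitted together for the comparison of reporters. The test was tried on simulated data first. Alternatives covered the level, the scaling, the pseudocount, the filter, each library, weights, the test and a replicate block. Symbols came from a RefSeq table of assembly NC12, where 1118 of 9729 identifiers had one.

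Named genes were *cpc-3*, the reporter entries, *cpc-1*, *cpc-2*, the 10 highest and 10 lowest with a symbol and the 3 highest and 3 lowest of all by log2 difference (called over 2-fold, groups apart, at least 10 TPM in the higher group), the 2 members of each list with the smallest adjusted p, the 3 genes of highest level and the 5 with the smallest p for the reporter difference. Further genes of the lists were added as examples. The members and lists were chosen with earlier results of these data known. The 5 genes of high level given in that comparison were chosen after their values were seen. The 6 mRNA libraries with other reporters were not used here. The calculations used Python 3.11.15, numpy 2.4.6, pandas 2.3.3, scipy 1.17.1 and matplotlib 3.10.9.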

Additional observations from a re-analysis of the deposited data

Results flagged for a closer look

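Δcpc-3 replicate 4 stood far from the other 3 Δcpc-3 libraries for 12 of 77 named genes. It was the highest for *lacc* (615 TPM), *ci-1* (78.4 TPM), *stk-52* (268 TPM), *ccg-13* (3355 TPM), *neg-1* (72.5 TPM), NCU09914 (421 TPM), NCU10641 (134 TPM), NCU06110 (61130 TPM), NCU04583 (9220 TPM) and NCU10040 (4491 TPM). It was the lowest for *am* (1159 TPM) and NCU07232 (338 TPM). Replicate 3 was the lowest for *tba-2* (448 TPM). Replicate 4 also stood apart in the summed level of 6 gene lists. Aminoacyl-tRNA synthetase genes took 0.0728% of its TPM, respiratory chain and ATP synthase genes 1.93%, conidiation, carotenoid and clock-controlled genes 3.2%, ergosterol genes 0.0221%, nitrogen assimilation genes 0.396% and cytosolic ribosomal protein genes 7.0%. Each has a gap to the nearest library above Dixon's 95% critical value for 4 samples, as a share of the range, which chance alone passes in about 1 in 20 groups. Of 100 values tested 19 passed, 18 of them in replicate 4. NCU04583, NCU07232 and NCU10040 were added after their values were seen, and many other genes were named for their strain difference. The rate of 1 in 20 is therefore no benchmark for these counts. In a count beyond the named genes, replicates 1 to 4 were the farthest of the 4 for 180, 345, 444 and 498 genes. Replicate 3 came near replicate 4 there. The cause was not tested.

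The strain difference with 1xWT-EDP differed from the mean of the other 3 reporters for 28 named genes, by a test of the difference itself. Of all tested genes 6.83% passed this test. NCU01871, NCU05395, NCU00322, NCU06940 and *asd-1* were named for their small adjusted p in it, so their passing was fixed by the choice. Many of the others were named for their strain difference, so the 28 do not stand for all genes. On the log2 scale it was more positive for *nop-1* (1.67), *con-8* (1.26), *ccg-13* (1.10), NCU00322 (1.05), *asd-1* (0.97), NCU06940 (0.96), NCU05395 (0.90), NCU01871 (0.87), *sod-2* (0.76), *acw-12* (0.75), *vvd* (0.51), *rpn-4* (0.43) and *cat-1* (0.32). It was more negative for *lao* (-1.57), *cmt* (-1.38), *hsp60* (-0.66), *inl* (-0.54), NCU00103 (-0.54), *cys-2* (-0.53), *cpc-2* (-0.44), *stk-52* (-0.43), NCU06047 (-0.39), *hH4-1* (-0.32), *hsp70-2* (-0.31), *eif5A* (-0.30), *tba-1* (-0.28), *tef-1* (-0.23) and *rap-1* (-0.22).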

How the results depend on the processing

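Of 77 named genes 57 kept their direction and their side of the threshold under all 19 alternatives. With single libraries left out, the counts of called genes lay between 1254 and 2576 in all, 687 and 1576 higher and 567 and 1000 lower, lowest without WT replicate 1 and highest without Δcpc-3 replicate 4. The deposited FPKM gave 597 higher genes and a *cpc-3* difference of -3.60, and array weights gave 2904 genes, 1714 of them higher. Student's test per gene gave 1369 calls. Chosen after the data were seen, Δcpc-3 replicate 4 alone against WT, with its spread assumed like that of WT, gave 1430 lower genes and 882 genes over 2-fold (565 lower), and shared 1335 of the 1958 calls. Signs turned for *cpc-1* (-0.089) and NCU06110 (0.061) with replicate 4 alone, for *cyt-20* (-0.15), *tef-1* (-0.35) and *asd-1* (-0.11) with FPKM, and for *asd-1* with median centring (-0.0036). The cause was not tested.

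The difference between reporters passed for 629 genes as more positive and 46 as more negative with FPKM, for 262 as more negative with centring, and for 181 and 311 with replicate 4 alone. Without Δcpc-3 replicate 4, the one library left out for this result, it passed for 1185 (858 and 327).

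With a replicate block over numbers 1 to 3, 2299 genes were called (1401 higher and 898 lower), 598 over 2-fold (362 and 236). The reporter differed by 1.03 and *cpc-3* by -4.30 (paired, p = 0.25 by exact permutation), and long against short CDS by -0.26. Correlations of same-numbered libraries were -0.022, 0.040 and -0.078, so the numbers do not pair the samples.

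Depth limits genes of low level, since a floor of 3 reads is highest in the shallowest libraries, and the mRNA has 1 library per strain and no test.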
